A study of Mus musculus with 6 samples.

Results

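The BCL2 family decides whether a cell releases cytochrome c from its mitochondria and dies by apoptosis. The family was followed in mouse ovary at E18.5, late in gestation, through 10 genes, the rows of the deposited count table named Bcl2, Bcl2l1, Mcl1, Bcl2l2, Bax, Bak1, Bok, Bid, Bad and Bcl2l11. All 10 were found among 25239 genes. They were chosen by name as pro-survival and pro-death members, with earlier results of these data known. RNA was sequenced from 6 ovary libraries of C57BL/6 mice, 3 of genotype WT and 3 of genotype Hnrnpl-null, whose titles carry the term CKO. Hnrnpl encodes an RNA-binding protein that regulates splicing. The labels name the tissue as ovary and the cell type as oocyte, and describe cells freed with Liberase and DNase, with no sort. They do not give the allele, the promoter of any Cre or the number of animals per library, so p-values measure only the spread between these libraries, which may be technical.

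BCL2 family proteins act through direct binding to one another. Pro-survival members hold a groove that takes up a short helix, the BH3 domain, of pro-death members. When the pro-survival proteins are occupied, the effectors form pores in the outer mitochondrial membrane, and caspases are activated downstream. In the mouse ovary many germ cells die around birth, while cysts break apart into primordial follicles. Bax is known to be needed for much of that loss in mice, and Bcl2l1 and Mcl1 for keeping germ cells or oocytes alive.

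The BH3 domain is what the 10 members share at the sequence level, so the codons of its core are shown for each of them, from GENCODE M21 coding transcripts on mm10. Each stretch is 45 bases, 5′ to 3′ on the coding strand. Capitals mark the codon of the conserved hydrophobic residue, which in pro-death members enters the groove, and the codon of the conserved aspartate.
Bcl2: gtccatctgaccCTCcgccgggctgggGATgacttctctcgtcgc
Bcl2l1: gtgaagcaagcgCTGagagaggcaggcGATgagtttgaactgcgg
Mcl1: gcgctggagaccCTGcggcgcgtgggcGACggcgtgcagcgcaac
Bcl2l2: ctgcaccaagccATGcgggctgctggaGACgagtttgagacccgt
Bax: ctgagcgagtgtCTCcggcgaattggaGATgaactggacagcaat
Bak1: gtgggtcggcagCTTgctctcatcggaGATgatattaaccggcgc
Bok: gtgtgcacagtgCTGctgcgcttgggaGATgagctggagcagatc
Bid: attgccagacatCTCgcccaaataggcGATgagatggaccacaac
Bad: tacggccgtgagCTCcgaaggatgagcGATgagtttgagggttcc
Bcl2l11: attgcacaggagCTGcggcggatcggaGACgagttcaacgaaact

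The stretches were found by a search of translated coding sequences for a 7-residue pattern written with the BH3 domains of these proteins in mind. In order, it takes leucine or methionine, then arginine, lysine, alanine or leucine, then any residue, then isoleucine, alanine, valine, methionine or leucine, then glycine or serine, then aspartate, then aspartate, glutamate or glycine. Each stretch is from the longest annotated protein of its gene among those that hold the pattern, and the pattern occurred once in that protein. It was found in all 10 members, and in 156 of 21591 coding genes in all (0.7%). The stretches lie in exon 1 of Bcl2 (chr1:106712569-106712613, minus strand) and Mcl1 (chr3:95659424-95659468, plus strand), and in exon 2 of Bcl2l1 (chr2:152829691-152829735, minus strand). They lie in exon 3 of Bcl2l2 (chr14:54884505-54884549, plus strand), Bax (chr7:45465991-45466035, minus strand), Bad (chr19:6950780-6950824, plus strand) and Bcl2l11 (chr2:128147138-128147182, plus strand). They lie in exon 4 of Bak1 (chr17:27022525-27022569, minus strand) and Bid (chr6:120897283-120897327, minus strand), and that of Bok is split by an intron between exons 2 and 3 (chr1:93686645-93689176, plus strand). Bcl2l1 and Bcl2l2 had the most alike pair of stretches, with 28 of 45 bases the same, and Bcl2l2 and Bid the least alike, with 15 of 45. Of 38 coding transcripts annotated for the members whose coding sequence begins with ATG, 33 encode the pattern. Whether their 3′ ends are complete was not checked. The deposited counts add up all transcripts of a gene, so they do not separate forms with and without it.

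Total counts per library were 8949781 to 22401419. The ribosomal RNA precursor Rn45s made up 83.0% of WT replicate 1, 86.1% of Hnrnpl-null replicate 3 and 18.6% to 36.0% of the other libraries, which left 1757572 to 10980179 counts for all other genes. The 10 members together had 2166, 7312 and 4253 counts in WT (replicates in order) and 6903, 8111 and 969 in Hnrnpl-null, whose replicate 3 is the least precise. Hnrnpl was at 172, 169 and 145 CPM (counts scaled to TMM-normalised library size) in WT and at 166, 173 and 213 CPM in Hnrnpl-null, with an edgeR adjusted p of 0.50. Its summed count therefore does not check the genotype labels, since which exons were removed and in which cells is not given. Of 14849 genes tested with edgeR's quasi-likelihood test, 663 (4.46%) passed an adjusted p of 0.05, of which 397 (2.67%) were higher and 266 (1.79%) lower in Hnrnpl-null.

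None of the BCL2 family members passed that test, although oocyte transcripts fell steeply in the same libraries. All 10 had enough counts to be tested, and 0 passed with edgeR, with DESeq2 or with limma-voom. An unadjusted p below 0.05 was reached by 2 of the 10 in edgeR, 1 in DESeq2 and 2 in limma-voom. In edgeR these were 1 higher and 1 lower member, while 2746 of all genes had such a p, 9.97% higher and 8.53% lower. The groups did not overlap for 2 of the 10, against 25.6% of all genes, and each of these shares is near or below its background. Hnrnpl-null relative to WT gave a ratio above 1 for 4 members and below 1 for 6. The median log2 fold change was -0.02, beside -0.01 over all tested genes. The 10 summed to 285, 303 and 293 CPM in WT and to 291, 309 and 303 CPM in Hnrnpl-null, and these sums overlap.

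**Figure D1:**
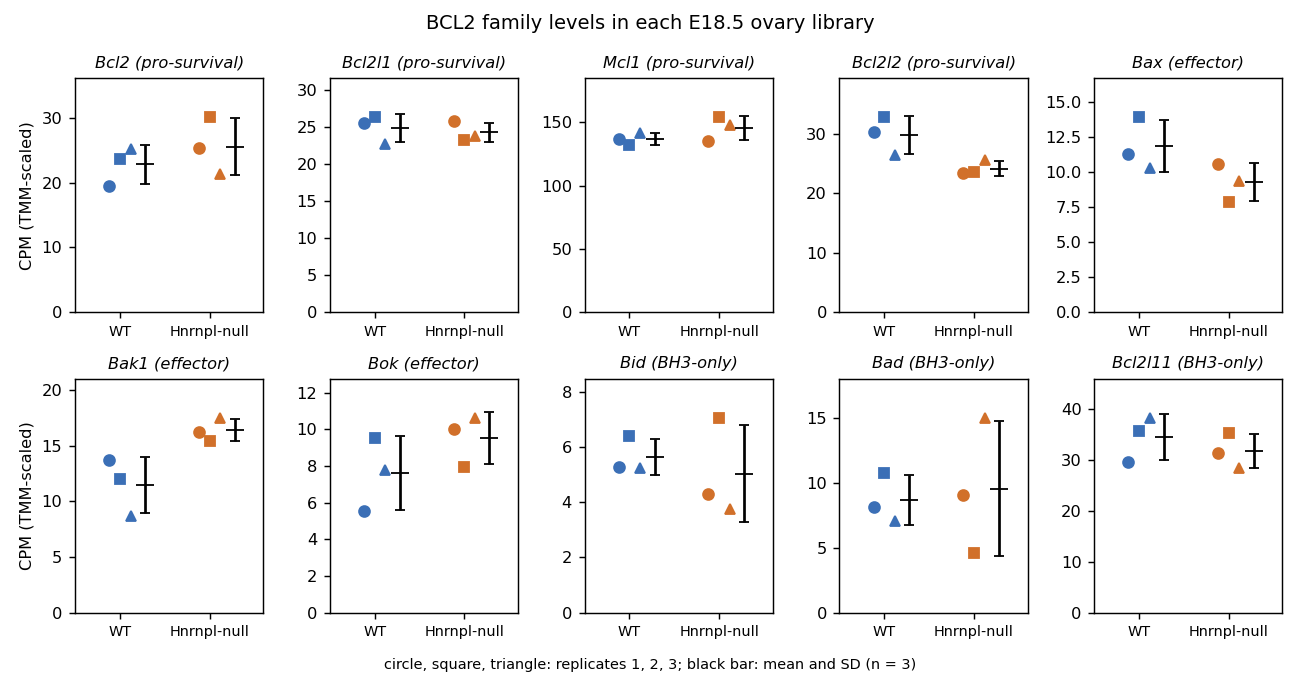
CPM on TMM-scaled library sizes (vertical axes, each from 0) of the 10 members in each library, with the mean and SD of 3 libraries beside the points. The groups overlap in 8 panels and are apart for Bcl2l2 and Bak1.

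The pro-survival members bind and hold the pro-death ones in check. Mcl1, a short-lived protein that has to be made continuously, was at 136, 132 and 141 CPM in WT and at 135, 154 and 148 CPM in Hnrnpl-null. The WT values lie within or just below the range of the other group. The ratio was 1.06, with a 95% interval of 0.905 to 1.25, so of all members Mcl1 was the one measured most tightly (log2 fold change 0.09 ± 0.11 SE, edgeR adjusted p = 0.72).

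Bcl2, the founding member of the family, was at 19.5, 23.7 and 25.2 CPM in WT and at 25.3, 30.1 and 21.2 CPM in Hnrnpl-null. The lowest library is WT replicate 1 and the next lowest is Hnrnpl-null replicate 3, which are also the libraries richest in Rn45s. The ratio was 1.13 (95% interval 0.888 to 1.45, edgeR adjusted p = 0.61). Bcl2l1, which encodes BCL-X, was at 25.6, 26.3 and 22.7 CPM in WT and at 25.8, 23.2 and 23.7 CPM in Hnrnpl-null. The groups lie on top of each other, and the ratio of 0.977 had an interval of 0.793 to 1.21 (edgeR adjusted p = 0.93). BCL-X is made in a long and a short form by alternative splicing, and the count per gene holds both.

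Bcl2l2, which encodes BCL-W, was the pro-survival member with separate groups. It was at 30.3, 32.8 and 26.5 CPM in WT and at 23.4, 23.6 and 25.6 CPM in Hnrnpl-null, so every Hnrnpl-null library lies below every WT library. The ratio was 0.804, with a 95% interval of 0.652 to 0.992. The unadjusted edgeR p was 0.043 and the adjusted p was 0.25, so the difference was not called. Over the 19 other settings its log2 fold change stayed between -0.39 and -0.24, and its adjusted p between 0.13 and 1.

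The effectors form the pore itself. Bak1, which sits in the mitochondrial membrane before any death signal, was at 13.7, 12.0 and 8.68 CPM in WT and at 16.3, 15.5 and 17.5 CPM in Hnrnpl-null. All 3 Hnrnpl-null libraries are above all 3 WT libraries, and the means were 11.5 ± 2.55 and 16.4 ± 1.03 CPM (SD, n = 3 each). The ratio was 1.43, the farthest from 1 among the members, with a 95% interval of 1.06 to 1.93 (log2 fold change 0.52 ± 0.20 SE). The unadjusted edgeR p was 0.023 and the adjusted p was 0.18. The lowest adjusted p over the 19 other settings was 0.086, with limma-voom, and its direction was the same in each of them.

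Bax, which moves from the cytosol to mitochondria when activated, was at 11.3, 13.9 and 10.3 CPM in WT and at 10.6, 7.88 and 9.38 CPM in Hnrnpl-null. Hnrnpl-null replicate 1 lies inside the WT range and the other two lie below it. The ratio was 0.778, with an interval of 0.562 to 1.08 (edgeR adjusted p = 0.41). Bok, a relative of Bax and Bak1 known to be expressed in reproductive tissues, was at 5.53, 9.53 and 7.79 CPM in WT and at 10.03, 7.92 and 10.6 CPM in Hnrnpl-null. The groups overlap through WT replicate 2, and the ratio was 1.21 (interval 0.827 to 1.76, edgeR adjusted p = 0.63).

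The BH3-only members carry death signals to the others. Bcl2l11, which encodes BIM and is induced when survival factors are withdrawn, was at 29.5, 35.6 and 38.2 CPM in WT and at 31.3, 35.1 and 28.4 CPM in Hnrnpl-null. Its ratio was 0.923, with an interval of 0.747 to 1.14 (edgeR adjusted p = 0.73), so a rise above 1.14 times WT in the whole sample lies outside the interval. Bid, which links death receptors to mitochondria after cleavage by caspase-8, was at 5.27, 6.38 and 5.24 CPM in WT and at 4.30, 7.04 and 3.75 CPM in Hnrnpl-null. The highest and the lowest of the 6 libraries are both Hnrnpl-null. The ratio was 0.928 (interval 0.589 to 1.46, edgeR adjusted p = 0.89).

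Bad, which is held inactive by growth factor signalling, was at 8.17, 10.8 and 7.03 CPM in WT and at 9.02, 4.61 and 15 CPM in Hnrnpl-null. Its Hnrnpl-null libraries spread more widely than all WT libraries, on both sides. The ratio was 0.998, with an interval of 0.592 to 1.68 (edgeR adjusted p = 1), and the log2 fold change was 0.39 without Hnrnpl-null replicate 2, -0.36 without replicate 3 of that group and -0.41 with limma-voom. Bad is the one member whose exons overlap those of another gene, Gpr137 on the opposite strand, over 517 of its 1521 exonic bases. Without a known strand setting, reads there cannot be told apart.

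The rarer members rested on few reads in Hnrnpl-null replicate 3. Low counts were nearly all even, as when both mates of a pair are counted, so a read pair was taken as 2 counts. Bid rested on 12 counts, or 6 read pairs, in Hnrnpl-null replicate 3, and the exact Poisson 95% interval of its level there runs from 1.38 to 8.16 CPM, which holds all 6 library values. Bad rested on 24 read pairs in that library, with an interval of 9.61 to 22.3 CPM, whose lower end is above the 4.61 CPM of Hnrnpl-null replicate 2. Such intervals cover counting error only.

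The range of change that the data exclude can be read from these intervals. For all 10 members the 95% interval lay inside a 2-fold change in either direction, from a lowest bound of 0.562 for Bax to a highest bound of 1.93 for Bak1. The same held for 61.7% of all tested genes, and for 86.9% of the 9531 genes with a mean level in the range of the members (5.33 to 141 CPM). For 4 members, Bcl2, Bcl2l1, Mcl1 and Bcl2l11, the interval also lay inside a 1.5-fold change, against 30.4% of all tested genes and 44.7% of those in that range of levels. The shares of the members are thus near those of genes of like level.

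Intervals that hold for the 10 members jointly were wider. With a Bonferroni allowance for 10 intervals at a joint level of 95%, 5 lay inside 2-fold, those of Bcl2, Bcl2l1, Mcl1, Bcl2l2 and Bcl2l11. Those of Bcl2l1 (0.706 to 1.35) and Mcl1 (0.827 to 1.37) also lay inside 1.5-fold. The joint bounds reached 2.28 for Bak1, 2.25 for Bad and 2.17 for Bok on the side of a rise, and 0.443 for Bad, 0.458 for Bid and 0.469 for Bax on the side of a fall. The intervals also depend on the libraries: without Hnrnpl-null replicate 2 the 95% interval lay inside 2-fold for 6 members, and in the 5 other fits that left out 1 library it did so for 7 to 10. It did so for 9 with limma-voom, where the lowest bound was 0.489, and for 8 without both libraries richest in Rn45s, where the bounds reached 0.485 and 2.09.

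**Figure D2:**
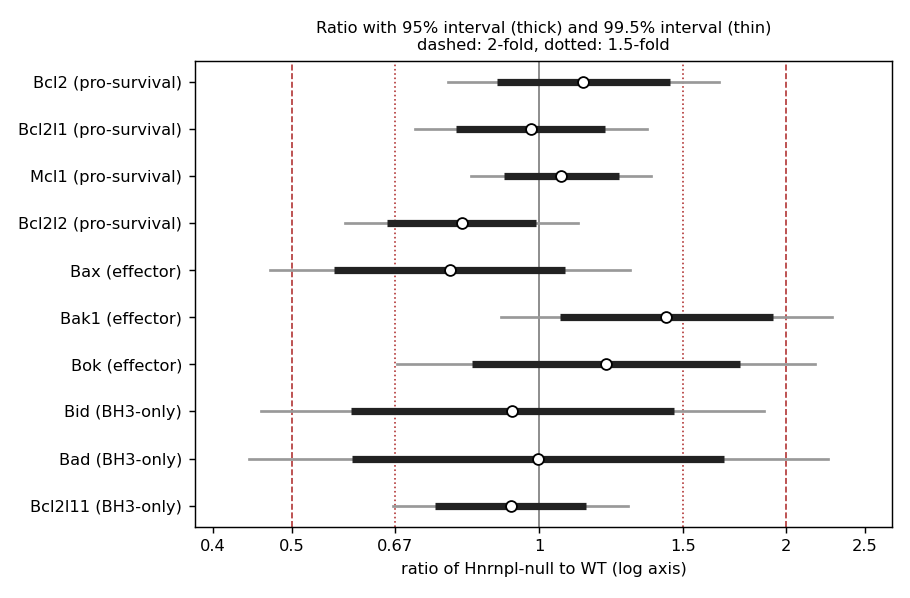
Ratio of Hnrnpl-null to WT for the 10 members (log axis) with 95% intervals as thick bars and intervals at a joint level of 95% over the 10 as thin bars; dashed lines mark 2-fold and dotted lines 1.5-fold. All thick bars stay between the dashed lines, and that of Mcl1 is the narrowest of the 10.

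Levels of different members were compared per kilobase of exon. Mcl1 stood first in all 6 libraries, at 39.2 ± 1.35 (WT) and 41.7 ± 2.75 CPM per kb (Hnrnpl-null), each with SD over 3 libraries, and Bax stood second in all 6, at 13.6 ± 2.13 and 10.7 ± 1.58 CPM per kb. In WT the libraries of Mcl1, Bax and Bcl2l2 did not overlap between one and the next. From Bcl2l2 (8.63 ± 0.927) through Bcl2l1, Bad, Bak1 and Bok to Bcl2l11 (4.83 ± 0.625), each neighbour in the order overlapped the next. Bcl2 (3.10 ± 0.404) and Bid (2.97 ± 0.345 CPM per kb) came last, apart from Bcl2l11 and overlapping each other.

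The order moved for Bak1 and Bcl2l2. Bak1 ranked 5, 7 and 8 in the WT libraries but 3, 3 and 4 in the Hnrnpl-null ones, while Bcl2l2 ranked 3 in every WT library and 5 in every Hnrnpl-null library. Bad moved most between libraries of one group, from rank 10 in Hnrnpl-null replicate 2 to rank 3 in Hnrnpl-null replicate 3.

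**Figure D3:**
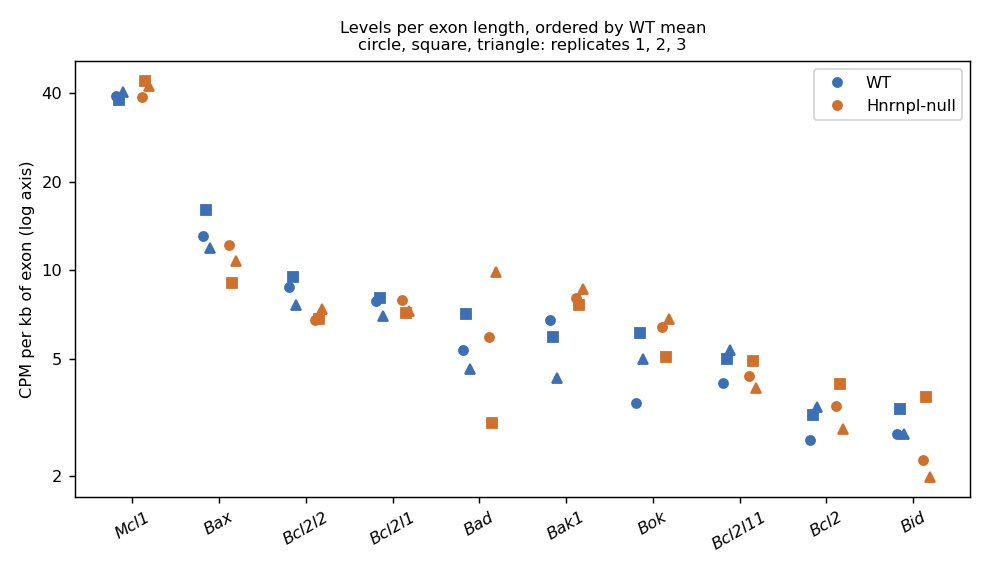
CPM per kilobase of exon (log axis) of each member in the 6 libraries, ordered by the WT mean. Mcl1 lies at 37.9 to 44.1 in all libraries, above every other member, and Bad spreads from 3.03 to 9.86 in Hnrnpl-null.

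Ratios between members of one library do not depend on how libraries are scaled. The ratio of Bak1 to Bax per kb was 0.520, 0.371 and 0.361 in WT and 0.658, 0.843 and 0.802 in Hnrnpl-null, so the groups are apart. The ratio of Bcl2l1 to Bcl2l2 was 0.897, 0.851 and 0.914 in WT and 1.17, 1.05 and 0.985 in Hnrnpl-null, again apart. Both pairs hold a member whose own groups are apart, and no test was made of them. The ratio of Mcl1 to Bax overlapped, at 2.36 to 3.41 in WT and 3.17 to 4.87 in Hnrnpl-null. That of Bcl2l11 to Bcl2l1 also overlapped, at 0.527 to 0.766 in WT and 0.546 to 0.690 in Hnrnpl-null.

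The balance of the classes overlapped between groups. The ratio of Bcl2 to Bax was 0.203, 0.201 and 0.288 in WT and 0.281, 0.451 and 0.268 in Hnrnpl-null. Of the summed per-kb level of the 10 members, the pro-survival ones made up 57.4% to 63.3% in WT and 58.7% to 65.0% in Hnrnpl-null. Mcl1 alone made up 64.5% to 69.2% of the pro-survival sum in WT and 68.1% to 71.0% in Hnrnpl-null. These are levels of RNA, and say nothing of protein.

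Marker transcripts of several cell types differed between the groups. All 10 germ cell markers were lower in Hnrnpl-null by edgeR, among them Ddx4, an RNA helicase of germ cells, at 20.6, 21.7 and 25.6 CPM (WT) and 15.5, 12.3 and 6.25 CPM (Hnrnpl-null). Their sums ran from 302 to 326 CPM in WT but from 105 to 119 CPM in Hnrnpl-null. None was at 0 in a whole group, and the call of Ddx4 was lost, at edgeR adjusted p-values of 0.066 to 0.16, without any one WT library or without replicate 2 of Hnrnpl-null, and with the replicate number as a block (adjusted p = 0.057). The call of Dazl was lost without replicate 3 of WT or replicate 1 or 2 of Hnrnpl-null (edgeR adjusted p-values of 0.054 to 0.073), and that of Figla without replicate 2 of Hnrnpl-null (adjusted p = 0.053). The labelled cell type, oocyte, thus had its markers detected in both groups, although Dppa3 had only 2, 2 and 0 counts in Hnrnpl-null. Nobox had a ratio of 0.105. Markers of pregranulosa cells, the supporting cells of the ovary, were present as well. They summed to 546 to 588 CPM (WT) and 619 to 674 CPM (Hnrnpl-null). Of 8 tested, 1 was called higher, Kitl, with means of 78.4 (WT) and 174 CPM (Hnrnpl-null). Fst was lower at an unadjusted edgeR p of 0.027 and was not called. The median log2 fold change of the 8 was 0.05, so the higher sums do not describe the list as a whole.

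Some markers of white blood cells were higher in Hnrnpl-null. Leukocyte markers summed to 45.2 to 51.1 CPM (WT) and 129 to 151 CPM (Hnrnpl-null), with 4 of 7 tested members higher, and 5 of 5 markers of myeloid granules were higher, summing to 1.58 to 2.49 CPM (WT) and 506 to 671 CPM (Hnrnpl-null), with Ms4a3 at 0 in all WT libraries. Erythroid markers overlapped, at 20.7 to 35.5 and 28.8 to 72.6 CPM. Of these, 0 of 3 tested were called by edgeR and 2 had an unadjusted p below 0.05. Hba-a1 and Hbb-bt were listed at 0. The exons of Hba-a1 overlap those of Hba-a2 over 1112 of 1118 bases, and those of Hbb-bt overlap Hbb-b2 over 630 of 630. How reads there were assigned is not stated, so these counts of 0 do not show that globin RNA was absent. Of 4 stroma markers 2 rose (sums of 2946 to 3157 and 4578 to 5004 CPM), as did 2 of 3 markers of the surface epithelium (268 to 301 and 323 to 400 CPM), while 0 of 4 endothelial markers were called by edgeR, 2 of them with an unadjusted p below 0.05. The part of these cells in the levels of the BCL2 family was not tested. The family is expressed in most cell types, and in such bulk samples fewer cells of a type and less RNA per cell cannot be told apart. The intervals above apply to the sum over all cells and set no limit on a change within germ cells alone.

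**Figure D4:**
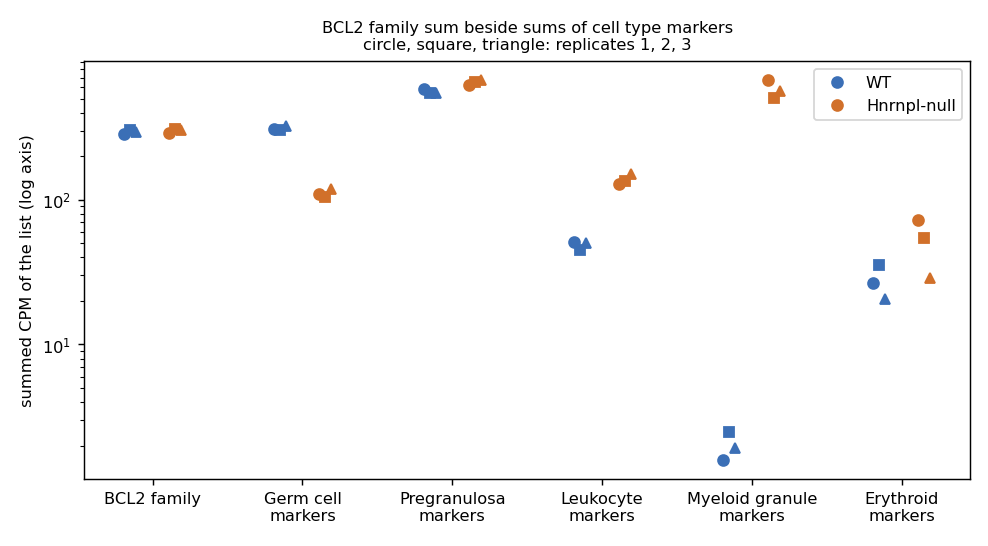
Summed CPM (log axis) of the 10 BCL2 family members and of 5 lists of cell type markers in each library. The family sums lie between 285 and 309 in all 6 libraries, while germ cell markers are lower and leukocyte and myeloid granule markers higher in every Hnrnpl-null library.

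The rest of the pathway was read from 6 lists of 57 genes, of which 49 were tested. Of these, 4 were called (8.16%, against 4.46% of all genes), 1 higher and 3 lower, and the median log2 fold change was 0.10. Before adjustment, 13 of the 49 (26.5%) had an edgeR p under 0.05. Over all genes such shares were 9.97% higher and 8.53% lower. In the order of the lists below, groups were apart for 5 of 7, 2 of 2, 5 of 17, 1 of 8, 4 of 5 and 4 of 10 tested genes. The share of all genes with groups apart was 25.6%. Each of the 4 calls was lost in at least 4 of the 6 fits that left out 1 library. Those fits called 249 to 853 genes in all, against 663 with all libraries. Over them the log2 fold change ran from 0.42 to 0.54 for Vdac1 and from -0.60 to -0.50 for Fbxw7. It ran from -2.04 to -1.61 for Trp63 and from -0.60 to -0.45 for Foxo3.

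Other BH3-only genes gave 0 calls among 7 tested by edgeR, with 2 at an unadjusted p below 0.05. Bmf, which encodes a BH3-only protein bound to the cytoskeleton, was at 30.8, 34.9 and 33.5 CPM in WT and at 43.4, 43.0 and 35.0 CPM in Hnrnpl-null. The groups are apart by a small gap, and the ratio was 1.23 (interval 1.01 to 1.498, edgeR adjusted p = 0.23). Pmaip1, which encodes NOXA, a partner of MCL1, was at 0.790, 2.49 and 1.72 CPM in WT and at 2.95, 4.42 and 3.12 CPM in Hnrnpl-null. Its ratio of 2.02 had a wide interval of 1.01 to 4.07 (edgeR adjusted p = 0.27). Bbc3, which encodes PUMA, an inducer of oocyte death after DNA damage in mice, was not selected by the rule for named genes and had means of 3.45 ± 1.0 (WT) and 4.33 ± 0.511 CPM (Hnrnpl-null) over 3 libraries each, with SD.

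Further BCL2-like genes were mostly near 0, with 2 of 8 tested and 0 called by edgeR, and 0 at an unadjusted p below 0.05. Bcl2l13, an outer membrane protein of mitochondria, was at 32.1, 36.9 and 33.4 CPM (WT) and 40.6, 43.0 and 37.8 CPM (Hnrnpl-null), a ratio of 1.19 (interval 0.988 to 1.43, edgeR adjusted p = 0.30). Bcl2l12, whose exons overlap an antisense gene model, had a ratio of 1.26 (interval 0.822 to 1.94, edgeR adjusted p = 0.59). Bcl2a1a, Bcl2a1b and Bcl2a1d are near-identical copies whose reads can be split between them, and none reached the filter. Bcl2l10 had 6, 6 and 0 counts in WT and 2, 6 and 0 in Hnrnpl-null.

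Downstream of the family, 1 of 17 genes of the apoptosome and its executioners was called. Vdac1, a channel of the outer mitochondrial membrane, rose from 98.8, 102 and 89.4 CPM in WT to 121, 138 and 143 CPM in Hnrnpl-null, with no overlap. The ratio was 1.38 (interval 1.17 to 1.64, edgeR adjusted p = 0.032), but the call was lost (edgeR adjusted p-values of 0.081 to 0.13) without any one WT library or without replicate 2 of Hnrnpl-null, and with the replicate number as a block (adjusted p = 0.069). The list had 4 members at an unadjusted p below 0.05 and a median log2 fold change of 0.10.

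Death receptors and their adaptors gave 0 calls among 8 tested by edgeR, with 2 at an unadjusted p below 0.05. Tnfrsf10b, the mouse TRAIL receptor, was at 4.08, 4.15 and 2.89 CPM (WT) and 6.49, 5.71 and 5.62 CPM (Hnrnpl-null), a ratio of 1.62 (interval 1.03 to 2.53, edgeR adjusted p = 0.23). Ripk1, a kinase of death receptor complexes, had means of 28.2 ± 2.40 (WT) and 20.96 ± 5.37 CPM (Hnrnpl-null) with SD (edgeR adjusted p = 0.25), and its groups overlap.

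Among 5 genes that act on the stability of the MCL1 protein, 1 was called, Fbxw7, and 2 had an unadjusted p below 0.05, 1 higher and 1 lower. Fbxw7, the substrate receptor of a ubiquitin ligase, fell from 25.6, 23.9 and 27.1 CPM in WT to 17.8, 16.4 and 18.1 CPM in Hnrnpl-null, with no overlap. The ratio was 0.680 (interval 0.548 to 0.845, edgeR adjusted p = 0.047), and the call was lost (edgeR adjusted p-values of 0.11 to 0.18) without any one library but replicate 3 of Hnrnpl-null, and with the replicate number as a block (adjusted p = 0.089). Cdc20, an activator of the anaphase-promoting complex, named after its values were seen, went the other way without being called. It was at 8.69, 12.8 and 9.51 CPM (WT) and 17.8, 20.6 and 14.4 CPM (Hnrnpl-null), with no overlap and a ratio of 1.71 (interval 1.26 to 2.33), and its edgeR adjusted p, 0.05 when rounded, missed the threshold.

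Among 10 regulators upstream of BH3-only genes, Trp63 and Foxo3 were called lower, and 3 had an unadjusted edgeR p below 0.05, all lower. Trp63, whose product p63 drives the loss of damaged oocytes, fell from 5.80, 3.73 and 3.72 CPM in WT to 1.43, 0.990 and 1.25 CPM in Hnrnpl-null, a ratio of 0.279 (interval 0.145 to 0.537, edgeR adjusted p = 0.031). Foxo3, a transcription factor that activates Bcl2l11 in several cell types, fell from 95.1, 94.5 and 74.8 CPM in WT to 59.0, 62.7 and 65.6 CPM in Hnrnpl-null, a ratio of 0.707 (interval 0.588 to 0.849, edgeR adjusted p = 0.035). The call of Trp63 was lost (edgeR adjusted p-values of 0.070 to 0.14) without any one library but replicate 3 of Hnrnpl-null, and that of Foxo3 (adjusted p-values of 0.12 to 0.17) without replicate 1 or 2 of either group. With the replicate number as a block the adjusted p was 0.060 for Trp63 and 0.071 for Foxo3. Both genes are expressed in oocytes, and the germ cell markers given above fell in the same libraries; their part in these falls was not tested.

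**Figure D5:**
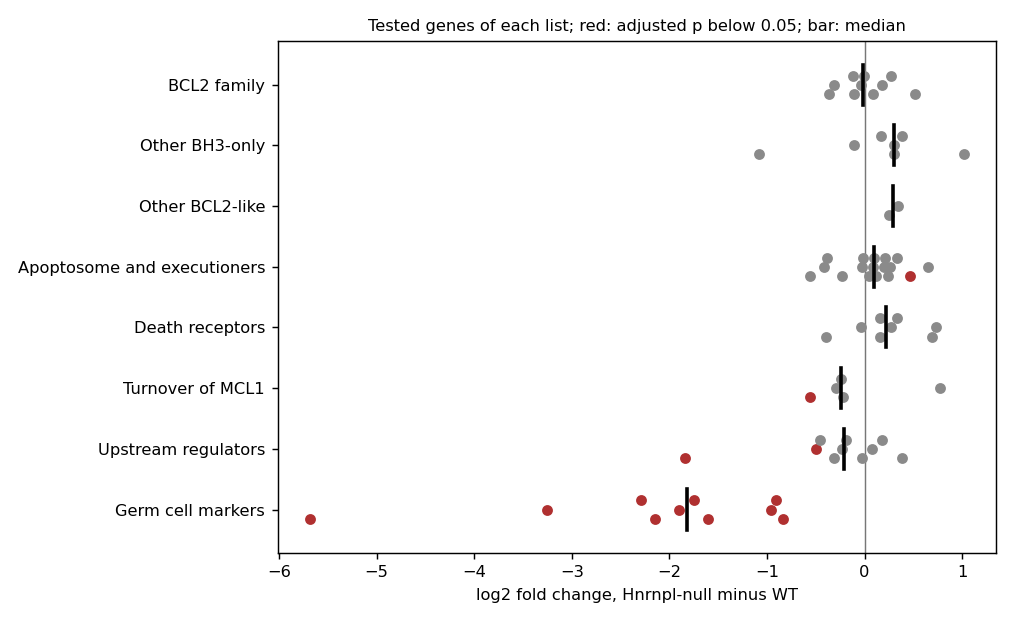
Log2 fold change (Hnrnpl-null minus WT) of each tested gene of the BCL2 family, of 6 pathway lists and of the germ cell markers, in red where the edgeR adjusted p was below 0.05, with a bar at each list's median. The 10 BCL2 family members lie between -0.36 and 0.52 with a median of -0.02, while the germ cell markers lie between -5.68 and -0.83.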

How the data were processed

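The authors deposited 1 table of raw counts per gene, with 1 column per library and each gene's exonic length, in the layout of featureCounts per the file headers. The submitters' processing notes name mm10 and the tools HISAT2 2.2.1, STAR 2.7.11a and featureCounts 2.0.6 without saying what each did. Annotation, strandedness and the treatment of multi-mapped reads are not stated there. For the tests here, edgeR 4.0.16 under R 4.3.3 was used with filterByExpr, TMM factors, glmQLFit and glmQLFTest (two-sided). Genotype was the only term, all 6 libraries entered, and p-values were adjusted by Benjamini-Hochberg over 14849 genes. Standard errors came from the F statistic, and intervals from a t distribution with the total degrees of freedom. The code was run on simulated counts drawn from means and dispersions estimated from these data. Such counts share the assumptions of the model and were not doubled, so they do not test how well it describes these libraries. CPM used TMM-scaled library sizes. Alternatives used DESeq2 1.42.0, limma 3.58.1 (voom), other scalings and filters, halved counts, robust dispersions, a replicate block and each library left out.

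The members and lists were chosen with earlier results of these data known. Named from each list were the called genes, or otherwise the 2 with the smallest p, besides all 10 members, Hnrnpl and Rn45s; of the cell type lists only examples are named. Bcl2a1a, Bcl2a1b, Bcl2a1d, Bcl2l10, Bbc3 and Cdc20 were named after their values were seen. Of values between 1 and 20, 93.4% to 98.4% per library were even. No 2 replicates were one library deposited again: halved counts gave chi-square values of at least 5.71 times their degrees of freedom.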

Additional observations from a re-analysis of the deposited data

How the results depend on the processing

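No member of the BCL2 family was called in any of 19 other settings, and Bcl2, Mcl1, Bcl2l2, Bax, Bak1, Bok and Bcl2l11 kept their direction in all of them. Library totals alone, which Rn45s dominates, gave 4 called genes, 0 members inside 2-fold, 0 inside 1.5-fold, 0 calls in the pathway lists and 0 of 10 germ cell markers. With totals alone and the Rn45s row left out, chosen after seeing the data, these were 255 genes, 9, 1, 1 and 9. DESeq2, limma-voom and no filter gave 1091, 1273 and 1104 called genes. The pathway lists had 1 call without both libraries richest in Rn45s, and 0 with the replicate block, which gave 444 called genes. Leaving out 1 library gave 249 to 853 called genes, 6 to 10 members inside 2-fold, 3 to 4 inside 1.5-fold, 0 to 5 pathway calls and 7 to 10 germ cell markers; the causes were not tested. Direction turned for 3 members near a ratio of 1. The log2 fold change of Bcl2l1 was 0.0004 without both libraries richest in Rn45s and -0.0881 to 0.0111 with 1 library left out, that of Bid was -0.4622 to 0.0385 with 1 library left out, and that of Bad was 0.055 with DESeq2, 0.0121 without the Rn45s row and -0.3585 to 0.3895 with 1 library left out. The replicate numbers were not used to pair libraries: same-numbered libraries correlated at -0.124, 0.088 and -0.089 in their deviations from the group means.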
